A study of Homo sapiens with 12 samples.

Results

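VAV3, VAV2, VAV1 and TIAM1 are guanine nucleotide exchange factors, and RAC1 and RAC3 are small GTPases that such factors switch on. These 6 genes were examined among 63568 genes in RNA-seq libraries of LNCaP cells, an established androgen-sensitive line derived from prostate cancer. The rows were found by gene symbol. VAV3 was chosen by its fall after BRG1 depletion in these same libraries, so its difference from control cells is described here without a test. The other 5 were taken by family name to ask whether that fall was particular to VAV3 among the VAV and Rac genes. VAV3, VAV2, VAV1, RAC1 and RAC3 passed the filter for testing of at least 1 TPM, a read count normalised for gene length and library total, in at least 2 libraries, and TIAM1 did not.

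BRG1, encoded by SMARCA4, is an ATPase of the SWI/SNF chromatin remodelling complex. Cells received a non-targeting siRNA pool (si-NT) or 1 of 2 siRNAs against BRG1, and were collected at 72 h, or at 144 h after being split and transfected with siRNA again at 72 h. The 12 libraries comprised 2 of si-NT and 4 of BRG1 depleted cells at each time, the 4 being 2 replicates of each siRNA, called siRNA 2 and siRNA 3 as in the table. The labels number the siRNAs differently, and for 1 library at 72 h they name both, so the siRNA of a 72 h library is less certain than its group. All groups were the same line and differed in siRNA and time. The 144 h cells also differed from the 72 h cells by the split and second transfection, which cannot be told apart from time. The sources do not say whether replicates were separate cultures, so p-values measure only the spread between these libraries, and TPM keeps no record of depth, which is unknown.

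SMARCA4 itself went at 72 h from 85.2 ± 16.7 TPM with si-NT (SD, n = 2) to 19.3 ± 1.75 TPM with the BRG1 siRNAs (SD, n = 4), and at 144 h from 101 ± 8.55 to 15.2 ± 2.63 TPM. All 7 luminal prostate markers were at 1 TPM or more in every group, whereas 0 of 5 haematopoietic and 0 of 3 basal epithelial markers reached it. Among 4 stromal and endothelial markers found in the table, COL1A1 alone did, and the sum of the 4 ranged from 3.35 to 9.52 TPM. Each library also held synthetic ERCC spike-in RNA, which made up 0.805% to 1.97% of its TPM.

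VAV proteins load GTP onto Rac and related small GTPases, chiefly once tyrosine kinases have phosphorylated them. GTP-bound Rac then drives actin assembly, membrane ruffling and kinase signalling until a GTPase-activating protein returns it to the GDP form. VAV1 is best known from blood cells, VAV2 and VAV3 are more widely expressed, and VAV3 is known in prostate cancer as a coactivator of the androgen receptor.

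VAV3 (ENSG00000134215.11) lies on the minus strand of chromosome 1 at chr1:108113783-108507802 (GRCh37) and has 15 annotated transcripts. Of the 15, 4 begin within 100 bases of an internal start, the one that the RefSeq promoter table gives. The deposited values add all transcripts of a gene together, so the use of that start was not measured. The 250 bases before the VAV3 internal start and before the VAV2 start are shown because VAV3 and VAV2, the VAV genes above 1 TPM in every si-NT library, differed in how they moved. Each is read 5′ to 3′ on the minus strand, the gene's own strand, ending at the base before the start, and capitals mark a match to the forkhead core TGTTTA on either strand.
VAV3 internal start, chr1:108231122-108231371, RefSeq promoter table: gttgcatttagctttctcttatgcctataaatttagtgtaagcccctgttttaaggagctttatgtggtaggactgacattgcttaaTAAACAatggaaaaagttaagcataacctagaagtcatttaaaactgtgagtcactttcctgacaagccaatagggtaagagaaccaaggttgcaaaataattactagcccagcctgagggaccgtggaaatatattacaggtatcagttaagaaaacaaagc
VAV2 start, chr9:136857447-136857696, RefSeq promoter table: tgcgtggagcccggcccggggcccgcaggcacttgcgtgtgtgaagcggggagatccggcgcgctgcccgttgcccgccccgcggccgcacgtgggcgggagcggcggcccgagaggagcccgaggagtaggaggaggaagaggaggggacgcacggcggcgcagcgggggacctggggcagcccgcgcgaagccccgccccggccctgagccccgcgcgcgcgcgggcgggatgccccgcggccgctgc

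The window at the VAV3 internal start had a GC content of 37.2% and 1 CpG. It held 1 forkhead core, a motif present in 11.0% of 35116 RefSeq promoter windows of the same length. The VAV2 window had a GC content of 81.2% with 40 CpG, against a median of 58.0% over all windows. The VAV3 start lies inside the gene and the VAV2 start near the 5′ end of its gene. The windows therefore compare unlike kinds of start, and a difference between them need not be one between the genes. Of all windows, 8.94% were at or below the GC content at the VAV3 internal start. TGTTTA was not found in the VAV2 window, and the androgen receptor half-site AGAACA, also searched on both strands and held by 12.4% of all windows, was in neither. A match of this kind is a description of the letters and not a binding site. Of the 6 genes, 4 had an entry in the RefSeq table, namely VAV1, VAV2, VAV3 and TIAM1.

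VAV3 was the one gene of its family that was lower in every BRG1 depleted library. At 72 h the si-NT libraries held 12.25 and 10.72 TPM of VAV3, the siRNA 2 libraries 2.84 and 2.33 TPM, and the siRNA 3 libraries 1.52 and 2.61 TPM. At 144 h VAV3 was 16.61 and 25.46 TPM in si-NT, 1.78 and 1.51 TPM with siRNA 2, and 1.93 and 1.11 TPM with siRNA 3. All BRG1 depleted libraries lay below all si-NT libraries of their time point, and the groups were far from overlapping.

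The mean of VAV3 in BRG1 depleted cells was 20.2% of the si-NT mean at 72 h and 7.52% at 144 h. On the log2(TPM + 1) scale, which understates changes of low genes, the difference was −1.92 (SE 0.21) at 72 h and −3.07 (SE 0.21) at 144 h. Counted from the largest fall of 16337 tested genes, VAV3 stood at position 21 at 72 h and at position 7 at 144 h. For comparison, 1.68% of tested genes differed at 72 h and 24.4% at 144 h (limma, adjusted p under 0.05), and for 4.78% of genes the depleted libraries all lay under the si-NT ones at both times. These shares are given as background only, since this contrast chose VAV3. In bulk RNA, fewer cells expressing VAV3 and less VAV3 RNA per cell cannot be told apart.

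**Figure D1:**
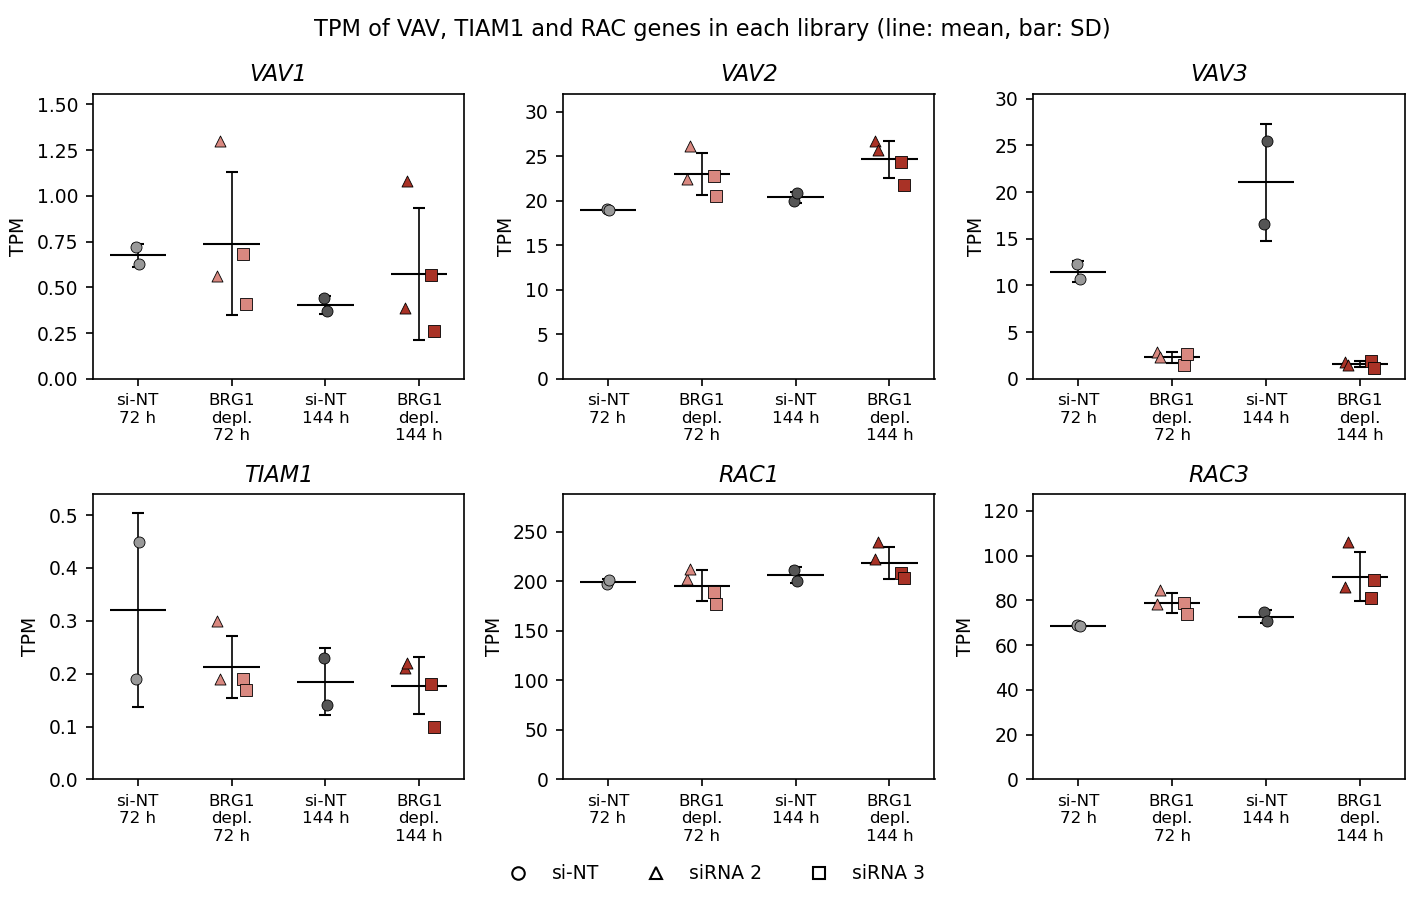
TPM of each gene (vertical axes, each from 0) in each of the 12 libraries, by group (horizontal axis); circles are si-NT, triangles siRNA 2 and squares siRNA 3, and lines and bars are group mean and SD. VAV3 is between 1.11 and 2.84 TPM in the BRG1 depleted libraries and between 10.72 and 25.46 TPM in si-NT, whereas the other 5 genes show no such separation downward.

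The siRNAs gave VAV3 levels that were not distinguishable at this number of libraries. The difference of siRNA 3 from siRNA 2 was −0.25 on the log2 scale at 72 h (95% interval −0.81 to 0.32, limma adjusted p = 0.844) and −0.09 at 144 h (−0.65 to 0.48, adjusted p = 0.911). The intervals therefore leave room for a difference between the siRNAs. Across all genes, 0.141% differed between the siRNAs at 72 h and 0.331% at 144 h. None of VAV2, RAC1 and RAC3 did so either (limma, lowest adjusted p = 0.41, RAC1 at 144 h). However, RAC1 at 72 h had an unadjusted p of 0.049 in limma, with 202.69 and 212.75 TPM under siRNA 2 and 189.15 and 176.91 TPM under siRNA 3.

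The VAV3 values of the same libraries were also set side by side over time, as a description without a test, since they are part of the contrasts that chose the gene. From 72 h to 144 h the si-NT level of VAV3 went from 11.5 ± 1.08 to 21 ± 6.26 TPM (SD, n = 2 each), a log2 difference of 0.79 (SE 0.24). The share of genes called in that si-NT comparison was 0.0% in limma, with 671 at an unadjusted p under 0.05. In BRG1 depleted cells VAV3 went from 2.33 ± 0.576 to 1.58 ± 0.36 TPM (SD, n = 4 each), a log2 difference of −0.36 (SE 0.17), in a comparison that called 4.27% of genes. The depleted ranges at 72 h and 144 h, 1.52 to 2.84 and 1.11 to 1.93 TPM, overlapped. By mean level the groups ran from si-NT at 144 h and si-NT at 72 h, 2 libraries each, to the depleted cells at 72 h and 144 h. The si-NT ranges did not overlap, but the share of all genes for which this held was not counted. With 2 libraries each, such a gap can arise by chance, and the order is described without a test.

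The depletion effect on VAV3 was larger at 144 h by 1.15 on the log2 scale (SE 0.30), a value that is described without a test because it is built from the contrasts that chose the gene. The same interaction called 0.0184% of genes, and none of VAV2, RAC1 and RAC3 among them (limma, all adjusted p at or above 0.769, none at an unadjusted p under 0.05). The difference at 144 h depended on which si-NT library was kept. It was −3.37 without si-NT replicate 1 and −2.78 without replicate 2, the library with 25.46 TPM of VAV3.

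VAV2 (ENSG00000160293.12, chr9:136627016-136857726, minus strand), a broadly expressed relative, was not lower in any BRG1 depleted library. At 72 h VAV2 was 19.06 and 18.97 TPM in si-NT, 22.45 and 26.19 TPM with siRNA 2, and 22.76 and 20.56 TPM with siRNA 3. At 144 h VAV2 was 19.93 and 20.82 TPM in si-NT, 26.7 and 25.66 TPM with siRNA 2, and 24.4 and 21.81 TPM with siRNA 3. Every BRG1 depleted library was above both si-NT libraries of its time, which also held for RAC3 and for 10.2% of all tested genes.

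The VAV2 difference was 0.26 on the log2 scale at both times (SE 0.11), with adjusted p = 0.309 at 72 h and 0.108 at 144 h in limma, and unadjusted p = 0.0384 and 0.0367. It therefore missed the threshold. When the libraries were scaled by the ERCC spike-ins instead of TPM, the VAV2 value at 144 h was −0.13, while the median of all genes moved from 0.03 to −0.31. Relative to that median VAV2 was at 0.19 with spike-in scaling and 0.23 on the TPM scale. Subtracting the median largely undoes a change of scaling, so the likeness of these values is no separate check.

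VAV1 (ENSG00000141968.3, chr19:6772719-6857377, plus strand), the haematopoietic VAV, was near the lower limit of these libraries. At 72 h VAV1 was 0.72 and 0.63 TPM in si-NT, 0.56 and 1.3 TPM with siRNA 2, and 0.68 and 0.41 TPM with siRNA 3. At 144 h VAV1 was 0.44 and 0.37 TPM in si-NT, 0.39 and 1.08 TPM with siRNA 2, and 0.57 and 0.26 TPM with siRNA 3. VAV1 passed the filter only through siRNA 2 replicate 2 at both times, the highest library in each, and the groups overlapped.

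The log2 difference of VAV1 was 0.03 (SE 0.24) at 72 h and 0.14 (SE 0.24) at 144 h. VAV1 reached the test only through depleted libraries, so these differences are given as values. At 72 h the 95% interval reached from −0.49 to 0.55, so changes of moderate size in VAV1 were not detectable here. The 5 haematopoietic markers summed to between 0.33 and 1.09 TPM in every library, with CD3E listed at 0 throughout.

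TIAM1 (ENSG00000156299.8, chr21:32490734-32932290, minus strand), an exchange factor with a preference for Rac, was barely present. TIAM1 was 0.19 and 0.45 TPM in si-NT at 72 h, 0.3 and 0.19 TPM with siRNA 2, and 0.19 and 0.17 TPM with siRNA 3. At 144 h TIAM1 was 0.23 and 0.14 TPM in si-NT, 0.21 and 0.22 TPM with siRNA 2, and 0.18 and 0.1 TPM with siRNA 3. The groups overlapped at both times, no library reached 1 TPM, and TIAM1 was not tested. An antisense gene named for TIAM1 was listed at 0.18 to 0.71 TPM. The paper names a stranded library kit. Whether counting used strand is not given in the sources used here, so reads of TIAM1 and its antisense partner may not have been told apart. The antisense gene named for VAV3 was listed at 0 in all 12 libraries.

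The make-up of the VAV family differed with BRG1 depletion, since VAV3 was lower and VAV2 was not. VAV3 supplied 38.2% and 35.4% of the summed VAV1, VAV2 and VAV3 TPM in si-NT cells at 72 h, and 44.9% and 54.6% at 144 h. In BRG1 depleted cells VAV3 supplied 9 ± 2.47% (SD, n = 4) at 72 h and 5.87 ± 1.04% at 144 h, and VAV2 88.2 ± 2.01% and 92 ± 1.61%. The ratio of VAV3 to VAV2, which no scaling of a library can change, was 0.643 and 0.565 in si-NT at 72 h and between 0.0668 and 0.127 after depletion. At 144 h the VAV3 to VAV2 ratio was 0.833 and 1.22 in si-NT and between 0.0509 and 0.0791 after depletion. VAV3 was thus close to level with VAV2 in si-NT cells at 144 h, and a minor part of the VAV pool in every BRG1 depleted library.

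The summed level of VAV1, VAV2 and VAV3 was 31.1 ± 1.2 TPM with si-NT and 26 ± 2.66 TPM after depletion at 72 h. At 144 h the sum was 41.9 ± 6.86 and 26.8 ± 2.56 TPM. These sums and shares contain the VAV3 values that chose the gene and carry no test.

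**Figure D2:**
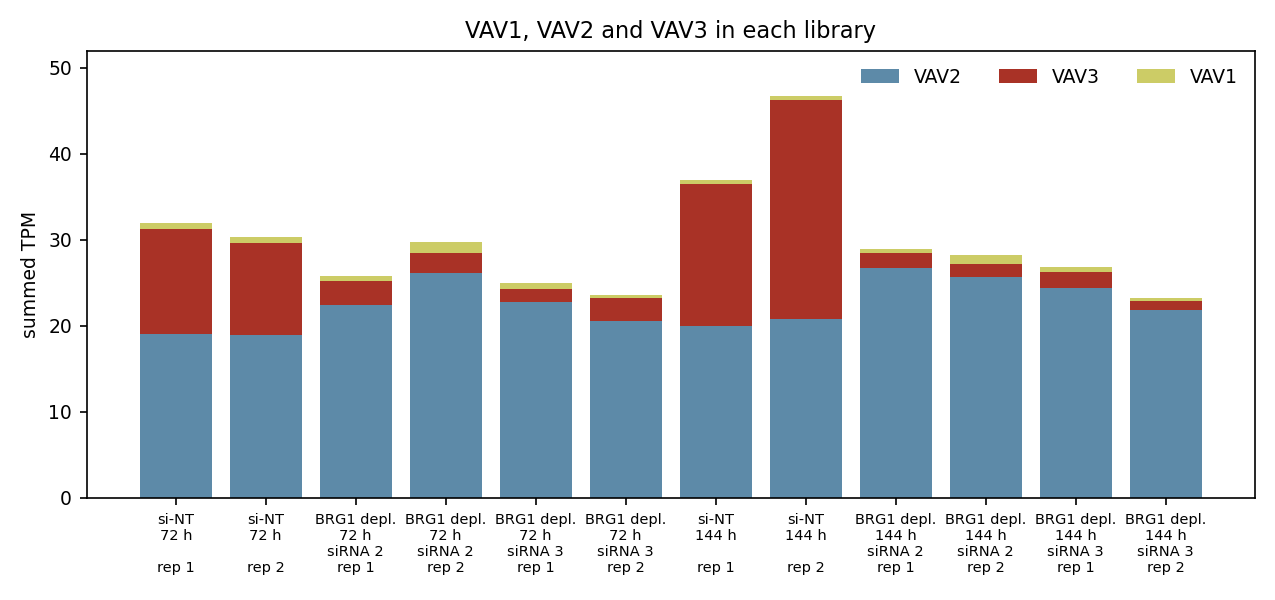
Summed TPM (vertical axis, from 0) of VAV2, VAV3 and VAV1 stacked for each of the 12 libraries (horizontal axis, by group, siRNA and replicate). The VAV2 part is between 18.97 and 26.7 TPM in all libraries, and the VAV3 part shrinks to between 1.11 and 2.84 TPM in the 8 BRG1 depleted ones.

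RAC1 (ENSG00000136238.13, chr7:6414158-6443598, plus strand), the ubiquitous Rac GTPase and the main substrate of these exchange factors, was the most abundant of the 6 genes. RAC1 was 197.7 and 201.55 TPM in si-NT at 72 h, 202.69 and 212.75 TPM with siRNA 2, and 189.15 and 176.91 TPM with siRNA 3. At 144 h RAC1 was 211.76 and 200.73 TPM in si-NT, 222.21 and 240.17 TPM with siRNA 2, and 208.39 and 203.38 TPM with siRNA 3. The depleted libraries lay on both sides of si-NT at 72 h, and the groups overlapped at 144 h as well.

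The log2 difference of RAC1 was −0.03 at 72 h (95% interval −0.24 to 0.17, limma adjusted p = 0.912) and 0.08 at 144 h (−0.12 to 0.29, adjusted p = 0.575). With spike-in scaling it was −0.23 and −0.32, or −0.11 and −0.01 relative to the median of all genes. Of the RAC1 pseudogenes, which share sequence with RAC1 and could take some of its reads, RAC1P2 was listed at 0.94 to 2.63 TPM, RAC1P5 at 0.11 TPM in a single library, and the others at 0.

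RAC3 (ENSG00000169750.4, chr17:79989554-79992080, plus strand), a close relative of RAC1 known best from the nervous system, was higher in every BRG1 depleted library than in the si-NT libraries of its time, though the test was narrowly missed. At 72 h RAC3 was 68.95 and 68.34 TPM in si-NT, 78.54 and 84.55 TPM with siRNA 2, and 78.85 and 73.81 TPM with siRNA 3. At 144 h RAC3 was 74.73 and 70.64 TPM in si-NT, 85.81 and 106.25 TPM with siRNA 2, and 81.12 and 89.26 TPM with siRNA 3. The highest value at each time was again siRNA 2 replicate 2, which was also the highest library for VAV1 and RAC1.

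The log2 difference of RAC3 was 0.20 (SE 0.10, limma adjusted p = 0.434) at 72 h and 0.31 (SE 0.10, 95% interval 0.08 to 0.54, adjusted p = 0.0514, unadjusted p = 0.0127) at 144 h. At 144 h the RAC3 value was −0.09 with spike-in scaling, or 0.22 once the median gene was subtracted, where the TPM scale gave 0.28. RAC3 supplied between 25.3% and 26.1% of the summed RAC1, RAC2 and RAC3 TPM in the 4 si-NT libraries. In the 8 depleted ones it supplied between 27.9% and 30.7%. The shares did not overlap, but how often such shares separate for other genes was not counted. The level of RAC3 alone was higher in all depleted libraries at both times, as for 10.2% of all tested genes. The ratio of RAC1 to RAC3 within a library was 2.83 to 2.95 in si-NT and 2.26 to 2.59 after depletion. RAC2 (ENSG00000128340.10), the haematopoietic Rac, was at most 0.22 TPM in any library and was not tested.

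**Figure D3:**
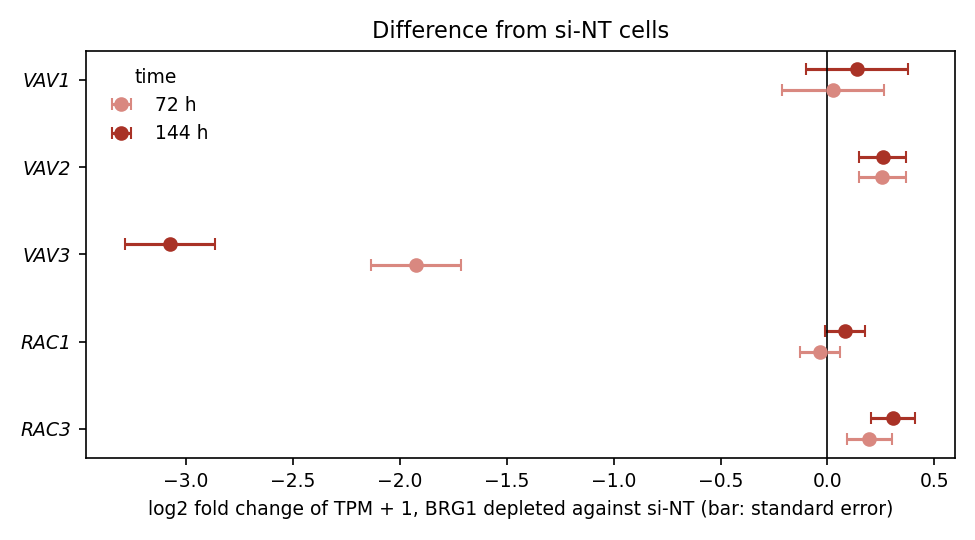
Difference between BRG1 depleted and si-NT cells (horizontal axis, log2 of TPM + 1) for the 5 tested genes (vertical axis) at 72 h and 144 h; points are limma estimates and bars standard errors. VAV3 is at −1.92 and −3.07, and the other 4 genes lie between −0.03 and 0.31.

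Among the tested genes other than VAV3, none of VAV2, RAC1 and RAC3 passed the threshold at either time in limma. Over all genes 1.68% passed at 72 h and 24.4% at 144 h, so that 0 of so few genes is near the background. VAV2 at both times and RAC3 at 144 h had an unadjusted p under 0.05 in limma. VAV1 is left out of this count, since it was tested only because of depleted libraries. On chromosome 1, the nearest tested genes on either side of VAV3 did not pass either. NDUFA4P1, a processed pseudogene 65.7 kb away, differed by −0.63 at 72 h (limma adjusted p = 0.36) and 0.49 at 144 h (adjusted p = 0.259). SLC25A24, a mitochondrial carrier 168.9 kb away on the other side, was 22 ± 2.55 TPM in si-NT and 24.3 ± 2.88 TPM in depleted cells at 144 h, a log2 difference of 0.14 (limma adjusted p = 0.496).

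The genes whose level was most like that of VAV3 over the 12 libraries were found by Pearson's r of log2(TPM + 1) among 15119 genes with a mean of at least 1 TPM. They were DDC (r = 0.974), which encodes the enzyme that makes dopamine and serotonin from their precursors, SMARCA4 (r = 0.97), and IFITM1, LRRC31 and BCHE (r = 0.959 each). All libraries share the si-NT and depleted groups, so r mostly restates that difference and carries no p. DDC was 89.1 ± 14.4 TPM in si-NT and 21.2 ± 1.65 TPM in depleted cells at 72 h, and 148 ± 24.7 and 17.4 ± 5.18 TPM at 144 h. The si-NT means at 72 h and 144 h were 1.97 ± 0.87 and 3.8 ± 1.12 TPM for BCHE, butyrylcholinesterase, 5.64 ± 1.08 and 5.85 ± 0.375 TPM for IFITM1, and 3.45 ± 0.665 and 3.93 ± 1.23 TPM for LRRC31. By the same measure r was −0.70 for VAV2, −0.72 for RAC3, −0.15 for RAC1 and −0.19 for VAV1, and 0.23 for TIAM1 and 0.67 for RAC2, both near 0 TPM.

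The rest of the pathway was followed in 81 listed symbols, of which 65 genes were tested, grouped as other Rac exchange factors, Rac inhibitors, Rac effectors, and the kinases and adaptors that act on VAV proteins. At 72 h, 0 of the 65 passed the threshold in limma, against 1.68% of all genes. An unadjusted p under 0.05 in limma was reached by 10 of the 65 and by 2339 of the 16337 tested genes. The median log2 difference was 0.12 against 0.06 for all genes. At 144 h, 4 were lower and 10 higher, against 10.8% and 13.6% of all genes, and the median was 0.18 against 0.03. The share called, 21.5% of the 65, was close to the 24.4% of all genes. The 10 include ARHGEF6 and LCK, which were tested only because of the depleted libraries in which they were high. Over the 60 genes with a mean of at least 1 TPM over all libraries, 4 were lower and 8 higher, against 11.1% and 14.4% of all genes with such a mean, and the median was 0.16. The largest fall among the 65 was that of RACGAP1, at −0.85. The −3.07 of VAV3 is set beside it as a value only, since this contrast chose VAV3 and not the listed genes. With spike-in scaling 3 of the 65 were called, all of them lower, against 749 of 16497 genes over the whole table. Of the 14 called on the TPM scale, 13 were tested there, and all 13 kept their sign relative to the median of all genes. Subtracting that median largely undoes a change of scaling, so the kept signs are no separate check. Without si-NT replicate 2 at 144 h the count was 4, against 1147 of 16273 genes over the whole table. Without replicate 1 it was 8, against 1759 of 16260.

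**Figure D4:**
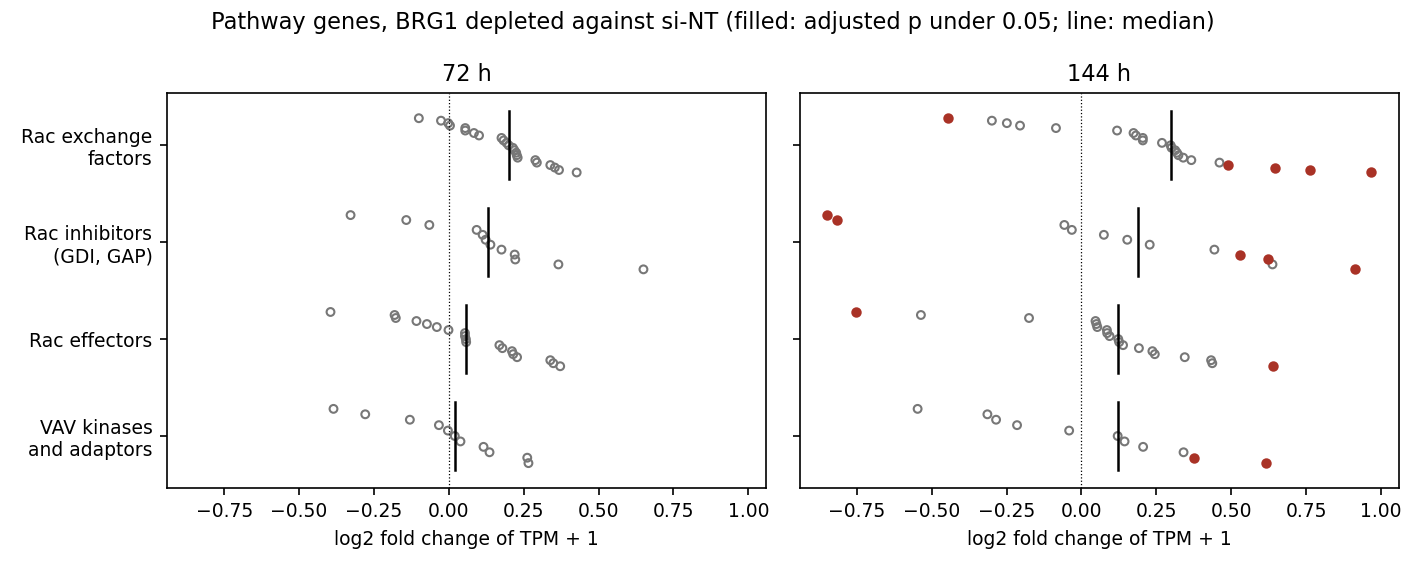
Differences between BRG1 depleted and si-NT cells (horizontal axis, log2 of TPM + 1) for 65 pathway genes in 4 lists (vertical axis) at 72 h and 144 h; filled points passed the test (limma adjusted p under 0.05) and lines are list medians. At 72 h 0 genes are filled, and at 144 h 4 are on the lower and 10 on the higher side.

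Among other Rac exchange factors, 4 of 23 tested were higher and 1 lower at 144 h, with a median of 0.30. The share called was 21.7%, near the 24.4% of all genes. Of the 21 with a mean of at least 1 TPM, 3 were higher and 1 lower. DOCK3, a Rac exchange factor known from neurons, rose from 2.37 ± 0.0707 to 5.6 ± 0.304 TPM, by 0.97 on the log2 scale (SE 0.14, limma adjusted p = 0.000914). ARHGEF4, also called ASEF, rose from 9.17 ± 0.834 to 16.2 ± 0.703 TPM (log2 difference 0.76, SE 0.11, adjusted p = 0.00102). ELMO2, a partner protein of DOCK exchange factors, rose by 0.49. ARHGEF6 was between 0.31 and 0.5 TPM in si-NT and between 0.86 and 1.34 TPM in depleted cells at 144 h, so it reached the test only through the depleted libraries, and its difference of 0.65 is given as a value. SPATA13, an exchange factor related to ARHGEF4, was the only one called lower (−0.45, limma adjusted p = 0.034), and was named for that reason after its value was seen. Each of these higher values was above 0 with spike-in scaling too, from 0.11 for ELMO2 to 0.65 for DOCK3, but passed no test there.

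The 12 tested Rac inhibitors split, with 3 higher and 2 lower at 144 h. The share called was 41.7%, against 24.4% of all genes, but with so few genes this difference was not tested. SRGAP3, a Rac GTPase-activating protein, rose from 5.47 ± 1.2 to 11.1 ± 1.04 TPM (log2 difference 0.91, SE 0.15, limma adjusted p = 0.00177), and SRGAP1 rose by 0.62. BCR, which carries a Rac GTPase-activating domain, was the third, at 0.53. RACGAP1, a component of the centralspindlin complex needed for cytokinesis, fell from 63.2 ± 5.39 to 35.1 ± 7.38 TPM (−0.85, SE 0.18, adjusted p = 0.00678). ARHGAP22, a GTPase-activating protein for Rac, fell from 6.4 ± 0.375 to 3.22 ± 0.385 TPM (−0.82, SE 0.15, adjusted p = 0.00343). With spike-in scaling SRGAP3, SRGAP1 and BCR were at 0.55, 0.30 and 0.14. Both falls also passed the test with spike-in scaling, at −1.24 and −1.14.

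Of 19 tested Rac effectors 1 was lower and 1 higher at 144 h, a share of 10.5% against 24.4% of all genes. LIMK1, the kinase that phosphorylates cofilin downstream of Rac, fell from 18.6 ± 0.53 to 10.7 ± 1.7 TPM (log2 difference −0.75, SE 0.17, limma adjusted p = 0.00855). BAIAP2, which links Rac to actin assembly, rose from 49.6 ± 0.933 to 77.9 ± 5.93 TPM (0.64, SE 0.12, adjusted p = 0.00335). With spike-in scaling LIMK1 was at −1.13 and BAIAP2 at 0.24. Of 11 kinases and adaptors that act on VAV proteins 2 were called higher, or 1 of the 10 with a mean of at least 1 TPM. The share called of the 11 was 18.2%, against the same 24.4% of all genes. SRC, a tyrosine kinase that can phosphorylate VAV proteins, was 22 ± 2.69 TPM in si-NT and 28.8 ± 2.36 TPM in depleted cells (0.38, adjusted p = 0.0302), but −0.01 with spike-in scaling. The other was LCK, the T cell kinase, at 0.3 ± 0.0141 and 1.01 ± 0.239 TPM, which reached the test only through depleted libraries, so its difference of 0.62 is given as a value.

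Over time in BRG1 depleted cells, 4 of the 65 genes, or 6.15%, were called between 72 h and 144 h, near the 4.27% of all genes. SPATA13 (−0.45) and ARHGAP22 (−0.59) were lower, and ARHGEF4 (0.38) and BCR (0.34) higher. The count ran from 0 to 3 with 1 library left out, and was 2 with a replicate block and 0 with spike-in scaling. In si-NT cells over time, between the siRNAs at either time, and in the change of the depletion effect, 0 of the 65 were called in limma, with 1 in si-NT, 3 and 8 between the siRNAs at 72 h and 144 h, and 8 in the change of effect at an unadjusted p under 0.05. Over all 16337 tested genes, the counts at that unadjusted p were 671, 1361, 2175 and 1943 in the same order. At 0 calls these comparisons do not show that the pathway genes were alike.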

How the data were processed

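RNA was sequenced from 12 LNCaP libraries in 4 groups. Per the paper's methods and the processing notes, the authors trimmed reads (Trim Galore), aligned them to hg19 with STAR 2.4.0j, counted them over genes and deposited TPM values, which sum to the same total in each library, spike-ins included. The paper also describes using the ERCC spike-ins to normalise its counts. The main tests here used TPM, with spike-in scaling as an alternative. Symbols were matched by gene ID to GENCODE v44 lifted to GRCh37, for 55665 of 63568 genes. The members and lists were chosen with earlier results of these data known. Differences were tested with limma 3.58.1 in R 4.3.3 on log2(TPM + 1) of genes at 1 TPM or more in 2 libraries (16337), with 4 groups (6 for the siRNAs), a trended prior and Benjamini-Hochberg adjustment. The test was tried on simulated data. The authors' count test could not be applied to TPM. Named pathway genes are up to 4 per list with the largest called difference at 144 h, and SPATA13 and BCR were named beyond that rule after their values were seen. Labels and table number the BRG1 siRNAs differently, and 1 library's labels name both, so table numbers are used. Alternatives were another pseudocount, no filter, 2 other scalings, a replicate block, 1 time point alone, no trend, combined si-NT and each library left out. Values relative to the median gene, and pathway counts over genes with a mean of at least 1 TPM, were added after the data were seen. A further gene list, a marker and a promoter window are not reported here.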

Additional observations from a re-analysis of the deposited data

Results flagged for a closer look

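TIAM1 in BRG1 depleted cells at 72 h had 1 library away from the others. siRNA 2 replicate 1 held 0.3 TPM and the other 3 libraries 0.17 to 0.19 TPM, so that the gap took a share of 0.846 of the range, above Dixon's critical value for 4 libraries. Of 12 groups examined this was the only one. Chance flags about 1 in 20 groups, so 1 flag among 12 groups can readily arise by chance. All values are far below 1 TPM.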

How the results depend on the processing

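The VAV3 difference was below 0 at both times under each alternative run. At 72 h it was −2.29 with a pseudocount of 0.1 and −2.32 with the si-NT of both times combined. At 144 h it was −3.65 with that pseudocount, −3.37 with spike-in scaling and −2.68 with combined si-NT, and ran from −3.37 to −2.78 with 1 library left out. The siRNA difference of VAV3 ran from −0.51 to 0.014 at 72 h and from −0.32 to 0.15 at 144 h with 1 library left out. Values near 0 changed sign for VAV1 at 72 h (−0.06 with spike-in scaling, −0.007 with median-of-ratios). Spike-in scaling at 144 h turned RAC1 (−0.32), RAC3 (−0.092) and VAV2 (−0.13); for the change of effect RAC1 (−0.092), RAC3 (−0.095) and VAV2 (−0.20); for time in depleted cells RAC1 (−0.007) and VAV2 (−0.063); and for the siRNAs at 72 h RAC3 (0.076) and VAV2 (0.007). With spike-in scaling the median gene moved from 0.055 to −0.115 at 72 h and from 0.026 to −0.313 at 144 h, BRG1 depleted against si-NT. For the other comparisons the shift of the median gene is not given here. With 1 library left out, VAV1 at 72 h ran from −0.011 to 0.12, RAC1 at 72 h from −0.076 to 0.012 and the change of effect of VAV2 from −0.047 to 0.065. RAC3 at 144 h passed the test with median-of-ratios (adjusted p = 0.0488), combined si-NT (0.35, adjusted p = 0.00737), without siRNA 3 replicate 1 at 144 h (0.36, adjusted p = 0.0336) and without siRNA 2 replicate 2 at 72 h (adjusted p = 0.0483), and VAV2 with combined si-NT (0.31, adjusted p = 0.0188). Over the whole table, combined si-NT called 1206 of 16337 genes at 72 h and 5022 at 144 h, and spike-in scaling 749 of 16497 at 144 h. Pathway genes called were 5 at 72 h with combined si-NT, and at 144 h 3 with spike-in scaling and 25 with combined si-NT. Over genes with a mean of at least 1 TPM they were 12 at 144 h, against 14. Over time in depleted cells they were 0 with no filter or spike-in scaling, and 2 with a replicate block or no trend, against 4. With 1 library left out they were 4 to 21 at 144 h (4 and 8 without si-NT replicates 2 and 1) and 0 to 3 over time, where each library but siRNA 2 replicate 2 of 72 h, left out, took the count to 2 or fewer. Genes called over the whole table at 144 h then ran from 1147 to 4310. What same-numbered libraries share beyond the number is not given in the sources. Their deviations from the group means had r from −0.229 to 0.30 over 15 group pairs, with a median of −0.02. A replicate block gave 179 genes called at 72 h and 3692 at 144 h, against 275 and 3983, and changed no call of VAV2, RAC1 or RAC3. The pathway count with that block at 144 h was 15. The causes of these changes were not tested. TPM keeps no depth, so counting error behind low values such as TIAM1 and VAV1 is unknown.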
